A study of Mus musculus with 6 samples.

Results

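Nonclassical monocytes are the vessel-patrolling monocytes of the blood, and in the lung they crawl along the inner wall of the capillaries. In the deposited annotation, 3267 of the 33061 cells with a class at postnatal day 21 carried the authors' name Nonclassical Monocytes, out of 55882 named cells in the whole series, and all 3267 were taken. Likely doublets with endothelial or mesenchymal cells were then removed, which left 3146 cells, and hyperoxia was compared with room air in these.

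The cells came from whole lungs of wild-type C57BL/6N mice, dissociated and sorted for live cells, and transcripts were counted as unique molecular identifiers (UMIs) with a droplet method that reads the 3′ end of messenger RNA. The room air group was kept in room air until postnatal day 21. The hyperoxia group breathed 95% oxygen on days 1 to 5 and was then returned to room air until day 21, an exposure used in rodents as a model of the lung injury of preterm infants. Each group had 1 female and 1 male library, each a pool of 3 mice, so a pool is the only unit of replication, and sex and replicate cannot be told apart within a group. The remaining pair of libraries, from room air at day 1, held 43 nonclassical monocytes and was not used.

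As background, nonclassical monocytes arise largely from classical (Ly6c2-high, Ccr2-positive) monocytes. The nuclear receptor Nr4a1 drives that conversion and the survival of the cells, Cx3cr1 binds a chemokine on the endothelium, Spn (CD43) is a surface mucin, and Ace is the angiotensin-converting enzyme. Monocytes respond to interferons by phosphorylating STAT proteins, which bind short DNA elements in the promoters of interferon-stimulated genes. Glucocorticoids act on the same cells through a nuclear receptor that switches on genes such as Fkbp5 and Tsc22d3.

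The name given to the class was borne out by its markers. Thinned to 2000 UMIs per cell, 69.0% of the cells held an Nr4a1 UMI, 75.5% Ace, 50.9% Spn and 51.5% Cx3cr1. Classical monocytes held them in 40.9%, 19.4%, 12.1% and 34.4% of cells. Of classes that should lack each gene, T cells held Nr4a1 in 1.5%, Ace in 1.46% and Cx3cr1 in 0.5% of cells, and B cells held Spn in 1.71%. T cells held Spn in 15.4%, more than classical monocytes did, and B cells held Ace in 9.06%. General capillary endothelial cells (gCap) held Ace in 80.6%, so Ace does not separate the class from the vessel wall. Ccr2, the receptor that marks classical monocytes, was found in 10.9% of nonclassical and 66.9% of classical monocytes. The median depth before thinning was 8833 UMIs per nonclassical and 14260.5 per classical monocyte.

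The libraries held 122173482 to 137510028 UMIs, and the filtered class held 4527037 to 9709490 UMIs per library. Median depth per cell was 9217.5 UMIs in female and 9464 in male room air, and 8458 in female and 7576 in male hyperoxia. No barcode of the class was shared between libraries, and 9 to 25 barcodes of all named cells were shared per pair of libraries. The female hyperoxia library stood apart in its sex-linked transcripts. Xist, the RNA that silences an X chromosome in female cells, was found without a Y-linked UMI in 83.6% of the cells in female room air but in 49.9% in female hyperoxia. In female hyperoxia 366 of 733 cells held neither Xist nor a UMI of the 4 Y-linked genes read (Ddx3y, Uty, Eif2s3y and Kdm5d), and 1 cell held a Y-linked UMI, while 78.5% of the cells in male hyperoxia held one. Results are therefore also given without the Xist-free cells of that library.

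Likely doublets were cells in which endothelial or mesenchymal genes made up at least 10% of what a true endothelial or mesenchymal cell of the same library carries, with at least 3 UMIs. They numbered 28 of 924 cells (3.03%) in female and 26 of 984 (2.64%) in male room air. They numbered 31 of 764 (4.06%) in female and 36 of 595 (6.05%) in male hyperoxia. The difference in females, 1.03 percentage points, was within its counting error (±1.78), and in males it was 3.41 ± 2.16. Other ways of finding doublets gave female differences beyond their counting error: 1.46 ± 0.907 at a threshold of 25%, 1.66 ± 1.10 with the doublet caller Scrublet and 1.47 ± 1.19 without Hpgd in the list, a gene taken up in the next paragraph. At a threshold of 5% the difference was 3.50 ± 4.17. Endothelial cells were a larger share of the named cells in both hyperoxia libraries (46.5% and 53.1%, against 36.8% and 34.9% in room air), and mesenchymal cells too (4.20% and 4.18%, against 2.83% and 2.86%). The removed cells had medians of 13567 and 12920 UMIs in female and male hyperoxia, against 8458 and 7576 in the cells kept. In room air the medians were closer, 10230 and 9958.5 against 9217.5 and 9464. Scrublet also flagged 13 and 17 of the removed cells in female and male hyperoxia, and 3 and 6 in female and male room air. Just under the threshold, the highest value kept was 9.74% to 10.00% of the endothelial level per library, and just above it the lowest value removed was 10.0% to 10.2%.

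The endothelial list holds Hpgd, a prostaglandin-degrading enzyme that the nonclassical monocytes themselves express at 857 to 945 CPM (counts per 1000000 UMIs of the class in a library), and 79.2% to 84.5% of the list's UMIs in the class were Hpgd. Many cells near the threshold were thus placed there by a gene of their own. Without Hpgd in the list, 7 and 10 cells would be removed in female and male room air and 17 and 21 in female and male hyperoxia. This alternative was chosen after seeing the data. It called 201 genes (1.76%), among them all 149 genes called with the full list.

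Fewer genes passed the test once the doublets were removed. With every cell of the class kept, 707 of 11718 genes (6.03%) passed an adjusted p of 0.05, 513 of them higher after hyperoxia (4.38%) and 194 lower (1.66%). Of those 707 genes, 448 (63.4%) had over 4-fold more CPM in endothelial, mesenchymal or epithelial cells than in the class. After removal 149 of 11354 genes (1.31%) passed, 72 higher and 77 lower, and 1252 had an unadjusted p under 0.05. The number of calls did not follow the number of cells removed, since a threshold of 25% in place of 10% gave 41. The share with over 4-fold more CPM in another lineage was then 21.5% (32 of 149), against 15.4% of all genes tested. It was 28 of the 72 higher genes and 4 of the 77 lower genes. Without the Xist-free cells of female hyperoxia 193 genes passed (1.74%), 129 of them among the 149. Of the called genes named in the text, Cxcl10, Egfl7, Phlda3 and Shtn1 were not called in that setting. The count depended on single libraries: 615 genes passed without female room air (5.31%), 176 without male room air (1.52%), 51 without male hyperoxia (0.425%) and 15 without female hyperoxia (0.126%). Of 65 called genes followed through the alternatives, 55 were not called without female hyperoxia, 46 without male hyperoxia, 18 without male room air and 2, Cxcl10 and Ptprcap, without female room air.

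**Figure D1:**
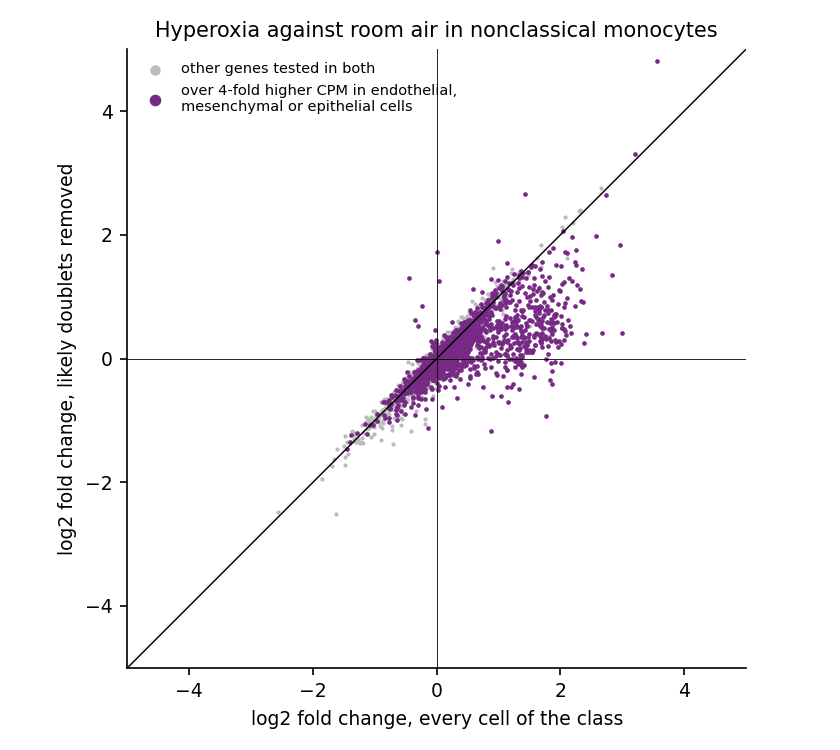
Log2 fold change of hyperoxia against room air in nonclassical monocytes with every cell kept (horizontal axis) and with likely doublets removed (vertical axis), 1 point per gene tested in both fits. Purple points, genes with over 4-fold more CPM in endothelial, mesenchymal or epithelial cells, form a cloud to the right of the diagonal: 448 of the 707 genes called with every cell kept were of this kind, and 32 of the 149 called after removal.

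Genes among the largest rises that were called with every cell kept and not after removal had most of their hyperoxia UMIs in the removed cells. In female and male hyperoxia 1 cell each met the mesenchymal rule, and 30 and 35 met the endothelial rule. In female and male room air 1 and 2 cells met the mesenchymal rule, and 27 and 25 the endothelial rule. How many removed cells held the UMIs of the genes below was not counted. Igfbp5, a secreted binder of insulin-like growth factors made by mesenchymal cells (989 CPM there), had 56 and 34 UMIs in the female and male hyperoxia libraries, of which 1 and 2 remained. Hhip, the hedgehog-binding protein of lung mesenchyme (1154 CPM there), went from 56 and 18 UMIs to 2 and 0. Robo2, a guidance receptor, went from 32 and 7 UMIs to 2 and 0, and Csmd1 from 14 and 18 to 2 and 2. Their log2 fold changes with every cell kept were 3.73 (SE 0.40), 3.67 (SE 0.60), 3.40 (SE 0.67) and 3.60 (SE 0.65). The unnamed transcript 9330175M20Rik went from 13 and 7 UMIs to 2 and 2. After removal the endothelial list had a median log2 change of 0.38 over 19 genes tested and the mesenchymal list 0.61 over 9. Egfl7, a secreted endothelial protein, was the 1 called gene of these lists at 10.1 and 10.2 CPM in room air and 17.2 and 19.4 CPM in hyperoxia, and it has 98.6 times the CPM in another lineage. The part of leftover endothelial and mesenchymal RNA in the rises given further on was not tested, and the level of a called rise in endothelial, mesenchymal or epithelial cells is given where it is higher there.

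Nonclassical monocytes were a smaller share of the named cells after hyperoxia, chiefly in males. Their share was 10.9% (Clopper-Pearson 95% interval 10.2% to 11.5%) in female room air and 9.14% (8.53% to 9.78%) in female hyperoxia. In males the share was 13.9% (13.1% to 14.7%) in room air and 6.52% (6.03% to 7.05%) in hyperoxia. The differences were -1.72 ± 0.905 percentage points in females and -7.39 ± 0.953 in males, where the errors cover counting only. Of immune cells alone the share did not fall in females (18.7% and 19.2%, a difference of 0.475 ± 1.63), and in males it went from 22.5% to 15.9%. With 2 libraries against 2, an exact two-sided permutation test cannot go below p = 0.33, so no test was made. The rise of the endothelial share stands beside these values, and its part in them was not tested.

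**Figure D2:**
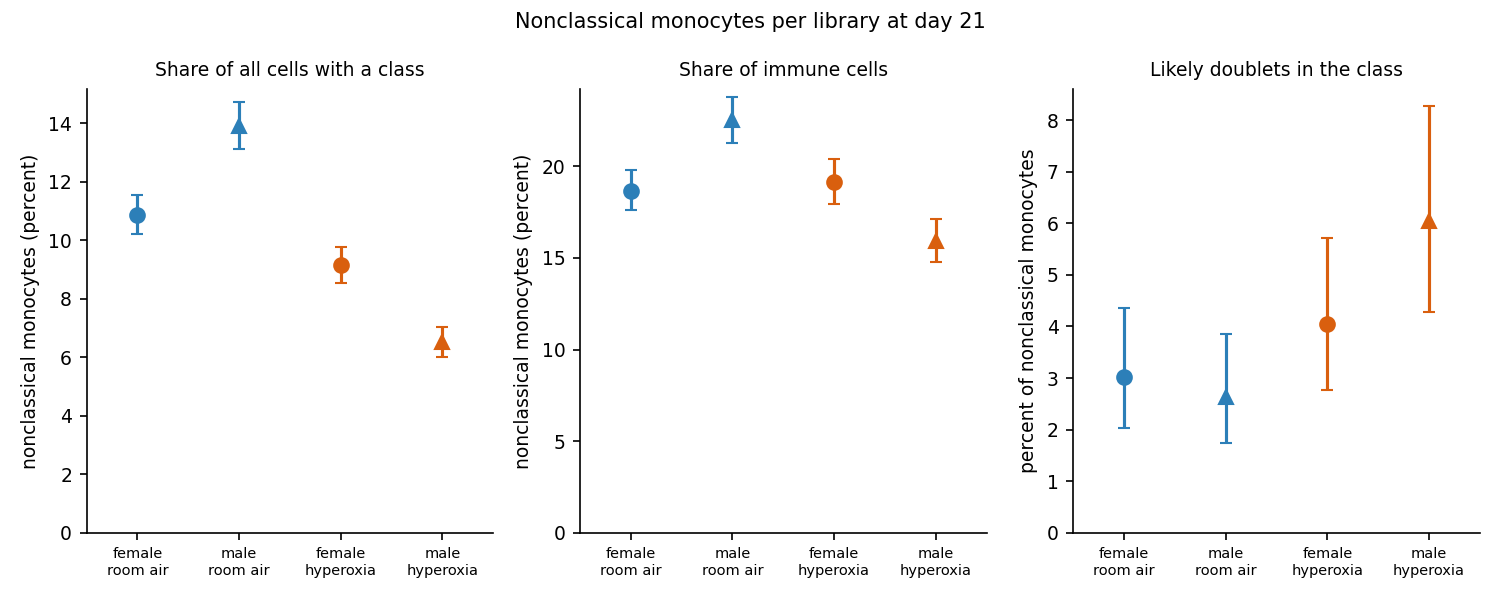
Nonclassical monocytes per library as percent of all named cells (left) and of immune cells (middle), and likely doublets as percent of the class (right), with exact 95% binomial intervals; circles are female and triangles male pools, blue room air and orange hyperoxia. Both hyperoxia pools are below both room air pools on the left, with the male hyperoxia pool lowest at 6.52%, while in the middle the female hyperoxia pool (19.2%) lies between the room air pools.

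Interferon-stimulated genes were lower in the class at day 21, after the return to room air. Of 63 genes on the list, 61 were in the files and 55 could be tested, and 24 of these were lower after hyperoxia and 0 higher, where 0.678% of all genes tested were called lower. All 55 had a negative log2 fold change, with a median of -0.74 against -4.53e-05 for all genes tested. Groups did not overlap for 52 of the 55, against 38.7% of all genes tested. The list summed to 5996 CPM in female and 7348 in male room air and to 4855 in female and 4548 in male hyperoxia.

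Ifi27l2a, a small interferon-induced membrane protein, was the most abundant called member, at 1008 CPM (exact Poisson 95% interval 987 to 1029) in female and 1067 in male room air, and 696 in female and 624 (601 to 647) in male hyperoxia. Both room air pools lay above both hyperoxia pools. The log2 fold change was -0.66 (SE 0.07, adjusted p = 0.00356), and it passed in each of the 17 alternative fits. Ifi213, a DNA-sensor family member, was at 28.2 and 31.6 CPM in room air and 13.2 and 12.6 CPM in hyperoxia, a log2 fold change of -1.21 (SE 0.14, adjusted p = 0.00367) that passed in each of the 16 alternatives that gave it a value. Slfn1, which restrains proliferation in immune cells, was at 67.9 and 93.0 CPM in room air and 39.5 and 38.0 in hyperoxia (log2 fold change -1.04, SE 0.12, adjusted p = 0.00367). Each was lower in both sexes and more so in males, with log2 ratios of -0.53 in females and -0.77 in males for Ifi27l2a, -1.10 and -1.33 for Ifi213 and -0.78 and -1.29 for Slfn1. The difference between the sexes was not tested.

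Called members of several arms of the response fell. Among signal transducers, Stat2 was at 46.8 and 51.5 CPM in room air and 27.2 and 30.0 in hyperoxia (log2 fold change -0.79, SE 0.11). Among antiviral effectors, the RNA-sensing synthetase genes Oasl2, Oas1a and Oas2 fell by 1.11, 0.66 and 0.82 on the log2 scale, and Isg15, a ubiquitin-like modifier, fell by 1.15 from 16.4 and 31.1 CPM to 10.3 and 10.2 CPM. Zbp1, a sensor of Z-form nucleic acids that can trigger cell death, fell by 0.83, Trim30a, a regulator of innate signalling, by 0.45, and the nucleotide kinase Cmpk2 by 1.02. Ifi204, Ifi209, Xaf1, Rtp4, Slfn5, Slfn8 and Parp14 were the other called members, between -0.40 and -0.82. Without male room air Isg15 was at -0.68 and not called (adjusted p = 0.145), and Zbp1 at -0.45 and still called.

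For several called members the male room air library stood far above the others, and those described here were grouped after their values were seen. Gbp2, a GTPase that attacks vacuoles of intracellular microbes, was at 21.2 CPM in female and 123 CPM (116 to 130) in male room air, and at 15.3 and 13.9 CPM in hyperoxia. Gbp3 was at 12.1 and 32.1 CPM in room air and 6.05 and 6.19 CPM in hyperoxia. Ifi47 went from 19.8 and 65.4 CPM to 15.1 and 13.7 CPM, and Igtp, another GTPase of the same defence, from 16.6 and 35.2 CPM to 11.5 and 9.50 CPM. Psmb8, a subunit of the immunoproteasome that cuts peptides for MHC class I, was at 259 and 442 CPM in room air and 221 and 223 CPM in hyperoxia. Male room air was the highest library for each of these, as it was for 19 of the 24 called members and for 64 of all 77 genes called lower. The log2 fold changes were -1.94 (SE 0.39) for Gbp2, -1.72 (SE 0.26) for Gbp3, -1.37 (SE 0.29) for Ifi47, -1.20 (SE 0.25) for Igtp and -0.62 (SE 0.13) for Psmb8. Without male room air, Gbp3 was still called, at -0.98 (adjusted p = 0.0201). Gbp2 was then at -0.53 (adjusted p = 0.326), Ifi47 at -0.45 (adjusted p = 0.582), Igtp at -0.65 (adjusted p = 0.186) and Psmb8 at -0.22 (adjusted p = 0.529).

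Cxcl10, a chemokine that draws activated T cells, had the largest fitted fall, but it came from few cells. Its 49 UMIs in female room air lay in 6 cells, 39 of them in 1 cell, and male room air had 25 UMIs in 7 cells. Female hyperoxia had 9 UMIs in 5 cells and male hyperoxia 0, which allows up to 3 UMIs. The adjusted p was 0.0478, it was at -1.58 without male hyperoxia (adjusted p = 0.446), and it was called in 6 of the 15 alternatives that gave a value.

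The number of interferon genes called depended on the settings, while their direction did not: the list's median stayed negative in all 17 alternatives. Leaving out female room air gave 46 called lower (2.82% of all genes), leaving out male room air 22 (0.666%), leaving out male hyperoxia 6 (0.108%) and leaving out female hyperoxia 4 (0.0420%). These fits have no sex covariate, and with all 4 libraries and no covariate 5 passed (0.0440%). DESeq2 called 4 (0.219%), the 25% doublet threshold 7 (0.166%), and the fit with every cell kept 41 (1.66%). Scrublet in place of the marker rule gave 42 (1.46%), equal numbers of cells per library 42 (2.01%) and no filter on low counts 47 (1.32%). Without male room air the list's median was -0.45, and without the other libraries, each left out in turn, it was -0.70 to -0.99.

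The lower level was spread over the class. The interferon list's share of a cell's UMIs had a median of 0.527% in female and 0.635% in male room air, and of 0.429% in female and 0.404% in male hyperoxia. The upper quartile was 0.712% and 0.928% in room air and 0.555% and 0.529% in hyperoxia. The 5% of cells with most of these UMIs held 14.2% to 14.9% of them in each of the 4 libraries. Within female hyperoxia, the 366 Xist-holding cells summed to 4786 CPM of the list and the 366 cells with neither Xist nor Y-linked UMIs to 4937 CPM, both below the room air libraries.

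**Figure D3:**
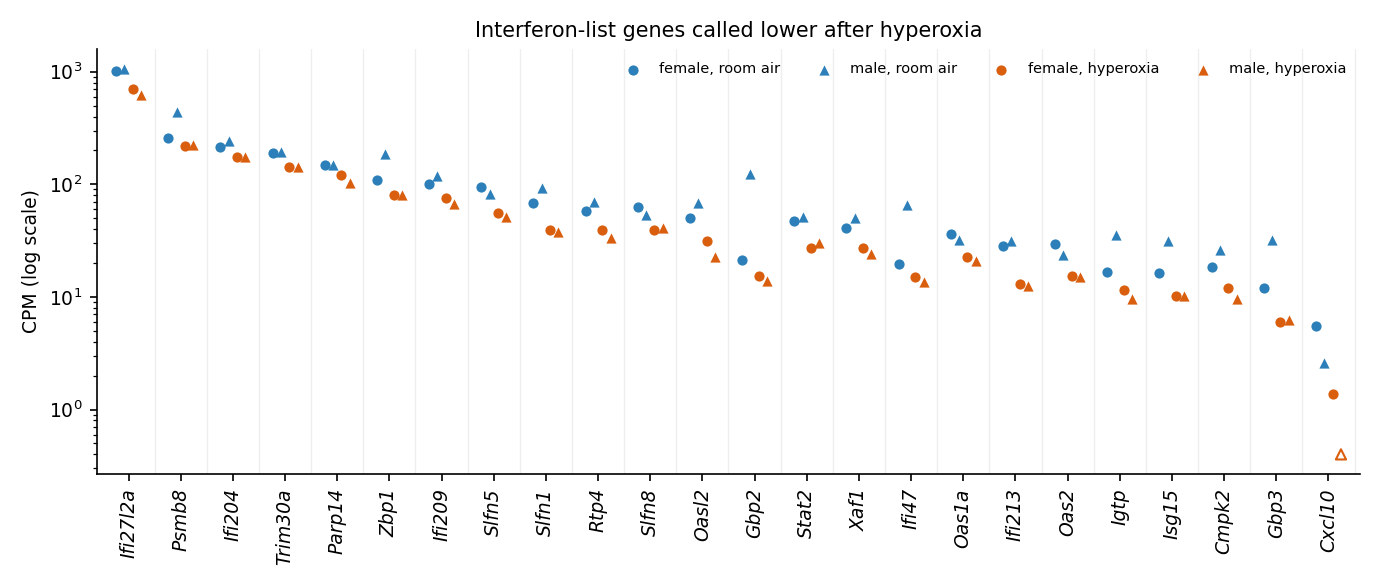
CPM per library (log axis) of the 24 genes of the interferon list called lower after hyperoxia, in order of mean CPM; blue marks are room air, orange hyperoxia, circles female and triangles male pools, and the open triangle marks 0 UMIs. Orange marks lie below both blue marks for each gene, and the male room air pool stands far above the rest for Gbp2 (123 CPM), Ifi47 and Gbp3.

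Promoters are shown for members that fell together, the 4 most abundant called ones with an entry in the RefSeq table (GRCm38.p6) and Gbp2, which was chosen after its values were seen. Each is the 250 bases before the RefSeq start site, 5′ to 3′ on the gene's strand. Capitals mark the letters TTC, any 3 bases and GAA, the form of a gamma-activated site, or GAAA, any 2 bases and GAAA, the core of the interferon-stimulated response element, searched on both strands. Ifi27l2a, Ifi204, Parp14, Zbp1, Rtp4 and Oas2 have no entry. Psmb8 (chr17:34197945-34198194, plus strand) holds 1 gamma-activated form, and Trim30a (chr7:104465194-104465443, minus strand), Slfn5 (chr11:82951852-82952101, plus strand) and Gbp2 (chr3:142620413-142620662, plus strand) hold 1 response-element core each. Ifi209 (chr1:173630609-173630858, plus strand) holds neither in this window.
Psmb8: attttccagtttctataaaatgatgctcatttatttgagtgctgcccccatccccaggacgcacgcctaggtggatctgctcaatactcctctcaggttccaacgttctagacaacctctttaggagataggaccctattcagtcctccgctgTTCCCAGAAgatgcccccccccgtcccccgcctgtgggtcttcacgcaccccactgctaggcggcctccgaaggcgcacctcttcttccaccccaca
Trim30a: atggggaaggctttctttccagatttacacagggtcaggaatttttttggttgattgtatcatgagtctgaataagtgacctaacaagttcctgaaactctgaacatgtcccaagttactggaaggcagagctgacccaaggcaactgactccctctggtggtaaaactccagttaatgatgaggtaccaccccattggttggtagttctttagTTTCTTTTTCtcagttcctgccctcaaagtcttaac
Slfn5: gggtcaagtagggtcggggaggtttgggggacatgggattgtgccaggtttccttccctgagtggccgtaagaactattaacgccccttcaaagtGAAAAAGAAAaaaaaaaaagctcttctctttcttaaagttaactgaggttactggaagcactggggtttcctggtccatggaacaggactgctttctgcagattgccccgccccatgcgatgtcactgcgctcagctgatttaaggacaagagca
Gbp2: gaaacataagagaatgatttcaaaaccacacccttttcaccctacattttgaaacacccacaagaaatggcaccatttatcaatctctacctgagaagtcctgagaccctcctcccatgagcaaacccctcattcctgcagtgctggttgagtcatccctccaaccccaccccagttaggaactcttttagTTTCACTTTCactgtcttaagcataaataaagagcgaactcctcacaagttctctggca
Ifi209: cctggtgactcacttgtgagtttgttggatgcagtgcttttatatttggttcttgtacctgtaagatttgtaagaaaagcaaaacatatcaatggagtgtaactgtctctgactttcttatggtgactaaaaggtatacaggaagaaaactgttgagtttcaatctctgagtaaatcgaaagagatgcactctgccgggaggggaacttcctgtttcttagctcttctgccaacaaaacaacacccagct

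The match begins 97 bases before the start in Psmb8, 36 in Trim30a, 155 in Slfn5 and 59 in Gbp2. Of the 18 called members with an entry, 11 hold the response-element core and 3 the gamma-activated form, and 12 (66.7%) hold either. Of the 23 members tested but not called, 14 (60.9%) hold either, so the called members are not set apart within the list by these letters. Over all 32851 promoters of the table, 2.98% hold the response-element core, 7.02% the gamma-activated form and 9.67% either. Outside the list, 17 of 47 genes called lower (36.2%) and 4 of 50 genes called higher (8%) hold either form, against 8.77% of the 8817 tested genes with an entry. A match is a description of letters in a window and not evidence of binding.

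MHC class I genes, which present peptides to CD8 T cells and are raised by interferons, had lower values after hyperoxia that rested largely on the high male room air library. All 13 tested had a negative log2 fold change (median -0.56) and 1 was called lower, where 0.678% of all genes were, Tap1, a peptide transporter, at 66.3 and 120 CPM in room air and 51.7 and 47.5 CPM in hyperoxia (log2 fold change -0.85, SE 0.17, adjusted p = 0.0356), and -0.41 without male room air. Summed over the list, the level was 6654 and 9029 CPM in room air and 6746 and 6117 CPM in hyperoxia, so the female pools were nearly equal. H2-K1 was at 1065 and 1563 CPM in room air and 1102 and 1025 CPM in hyperoxia. The list's median was -0.19 without male room air, and -0.58 to -0.92 with each of the other libraries left out. Without female room air all 13 were called lower (2.82% of all genes), and without either hyperoxia library 0 were. MHC class II genes, which present to CD4 T cells, are low in this class: Cd74, H2-DMa and H2-Ab1 ranged from 168 to 267, from 34.5 to 56.2 and from 9.38 to 16.8 CPM over the libraries, and 0 of 7 tested passed (7 of 7 negative, median -0.35, 3 with an unadjusted p under 0.05, and 0 by DESeq2). Cd74 and H2-DMa were each called in 5 of 17 alternatives and H2-Ab1 in 0, and without male room air the list's median was 0.03.

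Genes of the glucocorticoid response moved the other way. Of 15 tested, 6 rose and 0 fell, where 0.634% of all genes tested were called higher, and the median was 0.23. The list summed to 3303 and 2953 CPM in room air and 4270 and 4481 CPM in hyperoxia. Per cell it made up a median of 0.323% and 0.282% of the UMIs in female and male room air and 0.429% and 0.447% in female and male hyperoxia.

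Fkbp5, a co-chaperone that dampens the glucocorticoid receptor and is among its most responsive targets, was at 260 CPM (250 to 271) in female and 192 (184 to 201) in male room air, and at 497 (480 to 515) in female and 554 (532 to 576) in male hyperoxia. The hyperoxia pools lay above both room air pools, and the log2 fold change was 1.21 (SE 0.11, adjusted p = 0.00165). The share of cells with an Fkbp5 UMI was 69.2% and 61.5% in room air and 84.9% and 88.7% in hyperoxia, although the hyperoxia cells were shallower. Zbtb16, a transcription factor that glucocorticoids induce in many cell types, was at 326 and 265 CPM in room air and 504 and 511 CPM in hyperoxia (log2 fold change 0.77, SE 0.08, adjusted p = 0.00261). Fkbp5 and Zbtb16 passed in all 17 alternative fits, as did Ifi27l2a among the genes that fell.

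The other called members changed less. Klf9, a transcription factor of the hormone response, was at 108 and 75.6 CPM in room air and 141 and 149 CPM in hyperoxia (log2 fold change 0.65, SE 0.12, and 0.42 without male room air, still called). Dusp1, a phosphatase that switches off MAP kinases, went from 1128 and 970 CPM to 1398 and 1509 CPM (0.46, SE 0.08). Per1, a clock gene with a glucocorticoid-responsive promoter, went from 58.8 and 47.6 CPM to 79.7 and 67.8 CPM (0.46, SE 0.09). Tsc22d3, which encodes the anti-inflammatory protein GILZ, went from 351 and 348 CPM to 470 and 438 CPM (0.36, SE 0.07). Of the called members, Klf9 has 6.39 times the CPM in another lineage, Zbtb16 2.24, Tsc22d3 1.37 and Per1 1.32 times. Sgk1, Nfkbia and Ddit4 had log2 fold changes of 0.10, 0.20 and 0.28 and did not pass, nor did Mt1 (-0.28), Cebpd (-0.08) and Il1r2 (-0.08). The clock list had no called gene other than Per1 among 14 tested (median 0.03). Of the 15, 2 passed without female hyperoxia (0.0840% of all genes called higher), without male hyperoxia (0.316%), without the covariate (0.0969%) or at the 25% doublet threshold (0.192%), and DESeq2 called 3 (0.183%).

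**Figure D4:**
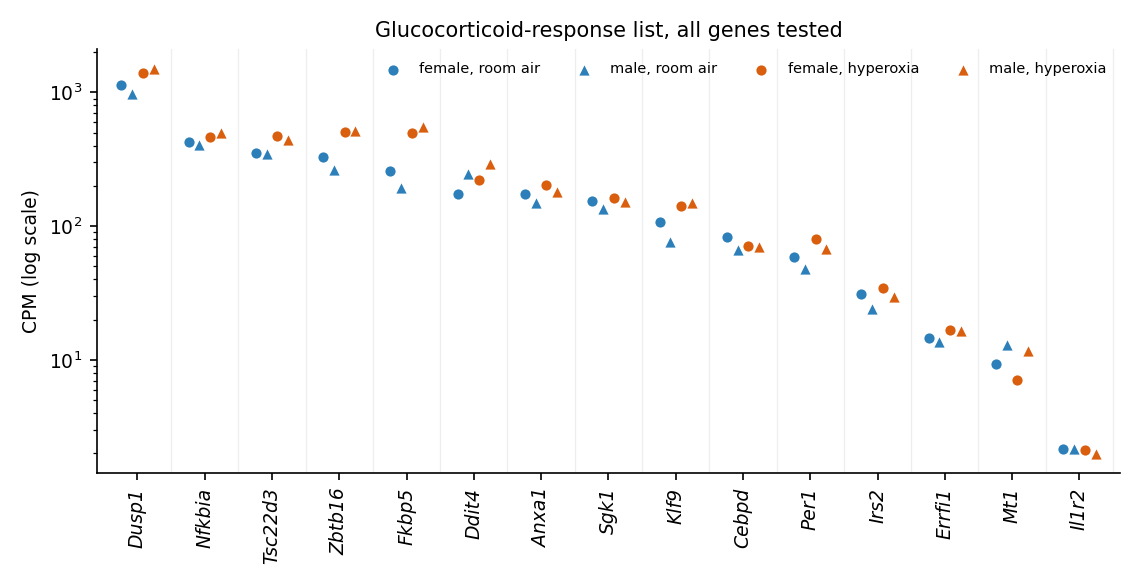
CPM per library (log axis) of the 15 tested genes of the glucocorticoid-response list, in order of mean CPM; blue marks are room air, orange hyperoxia, circles female and triangles male pools. Both orange marks lie above both blue marks for the 6 called genes, with the widest gap for Fkbp5 (192 to 260 against 497 to 554 CPM).

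A pair of the largest rises lay at the Fkbp5 locus itself. Fkbp5 is on chromosome 17 from 28399094 to 28517527, on the minus strand (GENCODE M21, GRCm38). Gm22146, an antisense transcript (ENSMUSG00000117084), lies within it on the plus strand, from 28446500 to 28456457, and was at 7.92 and 7.52 CPM in room air and 17.2 and 20.8 CPM in hyperoxia (log2 fold change 1.28, SE 0.18, adjusted p = 0.00622). E230001N04Rik, a long noncoding RNA from 28522720 to 28525398 on the plus strand, begins 5193 bases beyond the Fkbp5 start and was at 15.0 and 17.1 CPM in room air and 22.4 and 33.1 CPM in hyperoxia (log2 fold change 0.76, SE 0.14, adjusted p = 0.0299), or 0.45 and not called without male hyperoxia (adjusted p = 0.618). Whether the authors' counting used the strand is not given in the sources used here, so it is not known whether reads of Gm22146 and Fkbp5 were kept apart.

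Of the nonclassical identity list, 0 of 16 genes passed (4 had an unadjusted p under 0.05, and DESeq2 called 0), with a median of -0.03. Nr4a1 was at 663 and 656 CPM in room air and 632 and 643 CPM in hyperoxia (log2 fold change -0.06, SE 0.06). Ace was at 747 and 840 CPM in room air and 769 and 743 in hyperoxia (-0.08, SE 0.07), and Spn at 396 and 375 against 398 and 380 CPM (0.00, SE 0.07). Cx3cr1 was at 450 and 427 CPM in room air and 379 and 402 in hyperoxia (-0.18, SE 0.07, adjusted p = 0.339). The integrin Itgal, the G protein subunit Gngt2 and the transcription factor Pou2f2, the 3 most abundant members, had log2 fold changes of -0.02, -0.08 and -0.03. The standard errors of these 7 genes were 0.06 to 0.07 on the log2 scale. Some settings did call members: Cx3cr1 and Eno3 were lower with doublets kept (1.66% of all genes), Eno3 was lower without female room air (2.82%), and Fcgr4 and Fabp4 were higher without male room air (0.856%). Fabp4, a fatty acid-binding protein, was called higher in 6 alternatives in all, though its levels of 210 and 272 CPM in room air and 240 and 383 CPM in hyperoxia overlapped.

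Of the classical monocyte list, 1 gene was lower in the class after hyperoxia. Ccr2, the receptor for the chemokine that calls monocytes out of the bone marrow, was at 102 and 92.0 CPM in room air and 39.8 and 68.3 CPM in hyperoxia (log2 fold change -0.90, SE 0.16, adjusted p = 0.0193). Without female hyperoxia it was at -0.51 and not called (adjusted p = 0.254). It was the 1 called gene of 8 tested, where 0.678% of all genes were called lower, and the list's median was -0.14. With doublets kept 2 members were called lower and 2 higher (median 0.08), and without female room air 3 and 2 (2.82% and 2.5% of all genes). The list's summed level was 420 and 448 CPM in room air and 305 and 336 CPM in hyperoxia. Cells with a Ccr2 UMI, thinned to 2000 UMIs, were 13.5% and 11.2% in room air and 5.50% and 6.62% in hyperoxia (unthinned 33.6%, 32.9%, 17.3% and 18.4%). T cells, B cells and gCap held it in 1.77%, 0.612% and 0.272% of thinned cells. Ccr2 was lower in classical monocytes too, at 798 and 868 CPM in room air and 529 and 672 CPM in hyperoxia. Its log2 fold change there was -0.46 (adjusted p = 0.000200), and the difference between the classes was not called (adjusted p = 0.0847).

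Of 20 development and survival genes tested, 2 fell, where 0.678% of all genes were called lower. Bcl2, which blocks cell death, was at 205 and 273 CPM in room air and 149 and 198 CPM in hyperoxia (log2 fold change -0.47, SE 0.07, adjusted p = 0.00958). Irf8, a transcription factor of monocyte and dendritic cell fate that interferons raise, went from 104 and 161 CPM to 80 and 96.1 CPM (-0.57, SE 0.10, adjusted p = 0.0168). Bcl2 had a log2 ratio of CPM of -0.46 in each sex, and Irf8 of -0.37 in females and -0.75 in males. Neither was called without male room air, where Bcl2 was at -0.25 (adjusted p = 0.422) and Irf8 at -0.25 (adjusted p = 0.345), and Bcl2 was at -0.28 without female hyperoxia (adjusted p = 0.928).

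Outside these lists, the rule named 4 further large falls. Ifi205 and Ifi206, further members of the DNA-sensor family of Ifi213, fell by 1.59 and 1.54 on the log2 scale (adjusted p = 0.0154 and 0.0174). Ifi205 was at 7.01 and 24.1 CPM in room air and 3.78 and 5.74 CPM in hyperoxia, and Ifi206 at 24.4 and 40.3 against 13.6 and 7.29 CPM. Plaat3, a phospholipase, went from 12.9 and 34.6 CPM to 8.62 and 8.39 CPM (-1.35, SE 0.26). Without male room air Ifi205 was at -0.59 (adjusted p = 0.780) and Plaat3 at -0.60 (adjusted p = 0.381). P2ry12, an ADP receptor best known from platelets and microglia, went from 7.81 and 13.5 CPM to 3.03 and 5.74 CPM (-1.30, SE 0.23), and was not called without male room air (-0.89, adjusted p = 0.292) or female hyperoxia (-0.91, adjusted p = 0.775). The Ifi200, Gbp, Oas, Slfn and Trim30 genes are families of similar copies, and how reads shared between copies were counted is not given in the sources used here, so values of single members are uncertain.

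The remaining largest rises were of low genes with unlike roles. Shtn1, a protein of axon outgrowth, was at 15.8 and 14.0 CPM in room air and 30.0 and 28.5 CPM in hyperoxia (0.96, SE 0.13, adjusted p = 0.00651), with 2.76 times the CPM in another lineage, but it was at 0.68 and not called without the Xist-free cells of female hyperoxia. Hs6st1, a heparan sulfate sulfotransferase, went from 38.7 and 28.5 CPM to 66.7 and 47.5 CPM (0.75, SE 0.10). St7 went from 13.9 and 6.80 CPM to 21.8 and 22.1 CPM (1.09, SE 0.22), with 3.43 times the CPM in another lineage, and the long noncoding RNA 4933406I18Rik from 12.8 and 9.58 CPM to 23.3 and 15.7 CPM (0.79, SE 0.16). Fosb, an immediate-early gene that stands on the dissociation list, went from 48.4 and 25 CPM to 72.9 and 73.3 CPM (1.01, SE 0.17). Ptprcap, a partner of CD45 in lymphocytes, had 12, 24, 28 and 35 UMIs in female and male room air and female and male hyperoxia, 13 of the last in 1 cell (1.62, SE 0.32, adjusted p = 0.0345). It was called in 8 of 16 alternatives, and not without male hyperoxia (1.10, adjusted p = 0.592) or female room air (1.19, adjusted p = 0.124), nor with Scrublet (1.17). Fosb has 2.23 and Ptprcap 1.73 times the CPM in another lineage. Without male room air St7 was at 0.66 (adjusted p = 0.0968) and Fosb at 0.60, still called, and without female hyperoxia Hs6st1 was at 0.50 (adjusted p = 0.647) and 4933406I18Rik at 0.49 (adjusted p = 0.880).

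Other functional lists held 0 to 3 called genes each, where 0.634% of all genes tested were called higher and 0.678% lower. Of 24 inflammatory genes tested 1 rose, Ccl9, a chemokine of myeloid cells, from 68.1 and 64.4 CPM to 105 and 101 CPM (0.62, SE 0.08, adjusted p = 0.00622). Of 26 phagocytosis and complement genes 1 fell, Fcgr1, the high-affinity receptor for IgG that interferons raise, from 47.9 and 56.9 CPM to 36.5 and 31.6 CPM. Of 21 adhesion and migration genes, the integrin Itgb7 fell by 0.60 on the log2 scale, and Cxcr4, which retains leukocytes in marrow and tissue, rose by 0.35. Pecam1, a junction protein of endothelium and leukocytes, rose by 0.73, from 97.2 and 78.5 CPM to 178 and 118 CPM, and it has 12.9 times the CPM in another lineage. Itgb7 was at -0.29 without male room air (adjusted p = 0.243) and Pecam1 at 0.42 without female hyperoxia (adjusted p = 0.498). Of 20 oxidative stress genes 1 fell, the peroxidase Prdx5 (-0.35, SE 0.06). Of 19 p53 targets 1 rose, Phlda3, an inhibitor of AKT signalling, from 8.82 and 10.1 CPM to 13.2 and 22.5 CPM, and it too has 12.9 times the CPM in another lineage. Without male hyperoxia Phlda3 was at 0.44 (adjusted p = 0.707).

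Of 16 lipid genes and 6 cycling genes tested 0 passed edgeR's test or DESeq2, and 4 and 0 had an unadjusted p under 0.05. Apoe, the main apolipoprotein of macrophages, was at 1958 and 1591 CPM in room air and 2242 and 2150 in hyperoxia (0.30, SE 0.07, adjusted p = 0.0732), Pparg, a lipid-sensing nuclear receptor, had a log2 fold change of 0.22, and the lipid droplet protein Plin2 of -0.06. Apoe was called higher in 8 of 17 alternatives, such as with doublets kept (0.23, adjusted p = 0.0308), and was at 0.17 without male room air. Of 19 genes that respond to tissue dissociation, Fosb and Jund rose (Jund by 0.40, SE 0.07, with 1.56 times the CPM in another lineage), and the list's summed level was 6680 and 5837 CPM in room air and 7166 and 6301 CPM in hyperoxia. Of the 19, 14 had a positive log2 fold change. The list's median was 0.12, and -0.06 to 0.28 with each library left out in turn, highest without female room air. Jund was at 0.28 without male room air. Dusp1 and Per1 of the glucocorticoid list are also raised by handling of cells in other systems, and the part of dissociation in their rise was not tested.

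Markers of other cell types were low in the class. Natural killer cell genes summed to 22.8 CPM in female hyperoxia and 1.02 to 3.30 CPM in the other libraries. Gzma of that list had 75 UMIs in female hyperoxia, 58 of them in 1 cell. T cell genes summed to 13.1 and 19.0 CPM in room air and 22.2 and 20.1 CPM in hyperoxia, higher in both hyperoxia pools, and 6 of 6 tested had a positive log2 fold change (median 0.45). Mesenchymal genes, left after the removal of doublets, summed to 23.6 and 23.4 CPM in room air and 39.6 and 34.9 CPM in hyperoxia, with 9 of 9 positive. The part of these cells in the results was not tested. B cell genes summed to 84.3 and 134 CPM in room air and 93.0 and 102 CPM in hyperoxia. Epithelial genes summed to 183 and 167 CPM in room air and 183 and 217 in hyperoxia, and neutrophil genes to 355 and 304 against 307 and 338 CPM. None of the genes tested on these 6 lists was called. Marco, a scavenger receptor of alveolar macrophages, was called higher (log2 fold change 2.76, SE 0.50), but 36 of its 40 UMIs in male hyperoxia came from 1 cell, and without that library it was at 1.07 and not called.

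The fall of interferon genes was larger in nonclassical than in classical monocytes, and the rise of glucocorticoid genes was not shown to differ. The classes were compared by the interaction of class and treatment over 8 sums, with the library as a block. The classical class held 1458 cells after removal of doublets. Of 11429 genes 65 differed in their response (0.569%), 15 with a higher and 50 with a lower change in the nonclassical class. Of the interferon list 16 of 59 tested had a lower change in the nonclassical class, where 0.437% of all genes did, and 0 had a higher one (median difference -0.46). Of the nonclassical identity list 3 of 16, Dusp16, Ear2 and Fabp4, had a higher change than in classical monocytes (0.131% of all genes), by 0.55, 0.50 and 1.06 on the log2 scale. Of the glucocorticoid list 0 of 15 differed (median difference 0.03), and the self-test of this comparison recovered 15% of 2-fold and 77% of 4-fold differences, so small ones could be missed.

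Within classical monocytes alone, 133 of 10480 genes were called (1.27%), 9 of 57 interferon genes lower (0.496% of all genes) and 1 higher, with a median of -0.24, and 5 of 15 glucocorticoid genes higher (0.773% of all genes), with a median of 0.30. Fkbp5 rose by 0.98 and Zbtb16 by 0.77 on the log2 scale there, against 1.21 and 0.77 in the nonclassical class. Some other genes named above were also called there, such as Ccr2 (-0.46), P2ry12 (-0.97), Ccl9 (0.49) and Ptprcap (1.67). Others, such as Bcl2 (0.01) and Irf8 (-0.06), were not. Of 8 T cell genes tested in the classical class, 6 were called higher (0.773% of all genes), with a median of 1.86. The part of T cell RNA in the rise of Ptprcap, a lymphocyte gene, was not tested. The 16 interferon genes that differed were Bst2, Cmpk2, Cxcl10, Gbp2, Gbp3, Ifi213, Ifi27l2a, Ifi47, Ifit1, Ifit3, Igtp, Oasl2, Rsad2, Slfn1, Slfn5 and Xaf1, and 6 of them had a positive fold change in classical monocytes. Ifi27l2a had a log2 fold change of -0.66 in the nonclassical class and -0.28 in the classical class, and Gbp2 of -1.94 and -0.95.

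The 5 genes with the smallest adjusted p of the difference were Cxcl10, G0s2, S100a9, Plac8 and Slfn1. Slfn1 was at 301 and 291 CPM in classical monocytes of room air and 258 and 254 CPM after hyperoxia (-0.19, SE 0.08), a smaller change than in the nonclassical class (difference -0.87, SE 0.13, adjusted p = 0.00133). Plac8, an abundant protein of myeloid cells, fell in the nonclassical class from 2632 and 3081 CPM to 1992 and 2081 CPM (-0.50, SE 0.07) and had a log2 fold change of -0.15 in the classical class (difference -0.36, SE 0.05, adjusted p = 0.000644). G0s2, an inhibitor of fat breakdown, was at 71.8, 68.2, 83.7 and 83.3 CPM in nonclassical monocytes of female and male room air and female and male hyperoxia, while in classical monocytes it fell from 19.0 and 18.4 CPM to 7.87 and 7.17 CPM (difference 1.51, SE 0.20). Few classical monocytes held it: 60 and 28 cells in female and male room air, and 16 and 17 in female and male hyperoxia.

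Single cells weighed on the values of S100a9, which was found in 73 to 304 classical monocytes per library, and Cxcl10 rested on few cells. S100a9, a calcium-binding protein of neutrophils and classical monocytes, rose in classical monocytes (0.86, SE 0.14), where single cells held up to 655 of 1389 UMIs in a library, and its difference was -1.07 (SE 0.14). Cxcl10 rose in classical monocytes from 11 and 16 UMIs in room air to 92 and 123 UMIs in hyperoxia (3.67, SE 0.27), found in 12 and 6 cells, with 43 and 41 of those UMIs in 1 cell each. The fitted difference of Cxcl10 was -6.05 (SE 0.69, adjusted p = 5.92e-05), and since male hyperoxia had 0 UMIs in the nonclassical class its size depends on the fit. With doublets kept 33 genes differed (0.281%), DESeq2 called 15 (1.45% of the genes it gave an adjusted p), and without male hyperoxia or male room air 103 (0.834%) and 114 (0.964%) did. The 2 interstitial macrophage classes of the annotation had 27 to 53 and 6 to 8 cells per library and were not compared.

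**Figure D5:**
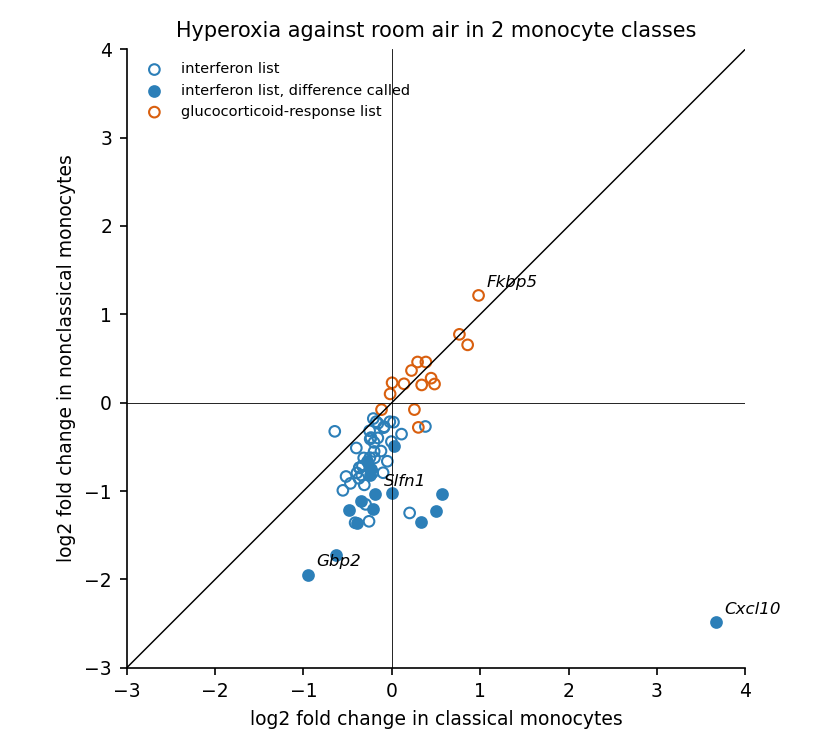
Log2 fold change of hyperoxia against room air in classical monocytes (horizontal axis) and nonclassical monocytes (vertical axis) for the interferon list (blue) and the glucocorticoid-response list (orange); filled points differed between the classes at an adjusted p of 0.05. Blue points lie mostly below the diagonal and orange points, none of them filled, scatter along it, with Fkbp5 at 0.98 and 1.21.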

How the data were processed

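The deposited values were whole UMI counts per gene and barcode, made by the authors with Cell Ranger 7.0.1 per the file headers of the day 21 matrices; the submitters' processing notes name Cell Ranger 6.0.0, Seurat 4.1.1 and mm10. Cell classes were the authors' own. Whether reads in introns were counted and whether doublets had been removed are not given in the sources used here. Cells named Nonclassical Monocytes in the 4 day 21 libraries were taken, likely doublets were removed by the marker rule given in the text, and counts were summed per library. The fit was edgeR 4.0.16 (R 4.3.3), quasi-likelihood, TMM scaling, filterByExpr, sex and treatment as terms (1 residual degree of freedom), with Benjamini-Hochberg adjustment over all genes tested and a threshold of 0.05. The comparison with classical monocytes had the library as a block and 2 residual degrees of freedom. Fits were tested on simulated counts: on 11357 genes the hyperoxia fit recovered 48% of 2-fold and 97% of 4-fold changes, and on 11300 genes the comparison of classes recovered 15% and 77%. The simulation used the same set spread for all genes and not the spread of the data.

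CPM are counts per 1000000 UMIs of the class's UMIs in a library. Intervals are exact (Poisson for CPM, Clopper-Pearson for shares), at 95%, and cover counting error only. Libraries are separate pools of mice, 1 per sex and group. Scrublet (scanpy 1.11.5) and DESeq2 1.42.0 were alternatives, beside those named in the closing section. Of 32285 genes, 32158 matched GENCODE M21 by Ensembl ID.

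The cells, the gene lists and the tests were chosen with earlier results of these data known, so no list is independent evidence. Named genes were the 10 largest called rises and falls with at least 20 UMIs in each library of the higher group, 1 direction in both sexes and no more than 4 times the CPM in another lineage, the called genes of the lists, the 3 most abundant genes of functional lists without a call, the 4 given markers, the 6 largest rises lost with the doublets and the 5 smallest adjusted p of the comparison of classes. For lists of other cell types without a call, only counts and summed levels are given. Some genes that the rule names are not reported here.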

Additional observations from a re-analysis of the deposited data

Results flagged for a closer look

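Gene lists were flagged whose summed level moved in opposite directions in the sexes beyond counting error, as log2 ratios of hyperoxia to room air within a sex. The difference between the sexes was not tested, since each sex has 1 library per group, and no flagged list had more than 1 called gene.

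MHC class I genes changed by 0.0197 in females and -0.562 in males, from 58824 to 44588 UMIs and from 87667 to 27690 UMIs. The alveolar macrophage list changed by -0.262 and 0.510, with Marco's 40 UMIs of male hyperoxia among its counts, and the neutrophil list by -0.212 and 0.156. Cycling genes changed by 0.187 and -0.199, on 490 to 1206 UMIs per library.

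Natural killer cell genes changed by 4.49 in females, from 9 to 151 UMIs, and by -1.58 in males, from 32 to 5 UMIs. Basophil and mast cell genes changed by 1.48, from 12 to 25 UMIs, and by -2.22, from 50 to 5 UMIs. These 2 lists rest on few UMIs of the class, and 58 of the 151 natural killer UMIs in female hyperoxia were Gzma UMIs of 1 cell.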

How the results depend on the processing

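The 65 called genes that were followed through the alternatives kept their direction in all 1081 alternative values, and 284 of those values no longer passed. The main count of 149 called genes became 707 with doublets kept, 99 and 41 at doublet thresholds of 5% and 25%, 308 with Scrublet in place of the marker rule, 419 with equal numbers of cells, 442 without the filter on low counts, 22 with DESeq2, 16 without the sex covariate, and 15 to 615 with each library left out in turn (51 without male hyperoxia). DESeq2's 22 and the no-covariate 16 were all among the 149. Interferon genes called lower, 24, became 41 with doublets kept, 7 at the 25% threshold, 42 with Scrublet, 42 with equal cells, 47 without the filter, 4 with DESeq2, 5 without the covariate and 4 to 46 with each library left out. Glucocorticoid genes called higher, 6, became 2 at the 25% threshold, 3 with DESeq2, 2 without the covariate and 2 to 7 with each library left out. The 65 genes that differed between monocyte classes became 33 with doublets kept, 15 with DESeq2 and 69 to 114 with each library left out (103 without male hyperoxia). The cause was not tested, except that fits without a library or covariate estimate the spread differently, and a left-out arm has 1 sample that is assumed to vary like the other group.

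The share of nonclassical monocytes among immune cells changed by 0.475 percentage points in females, the opposite sign to the share of all cells, and among all barcodes it changed by -4.79 in males. The female difference in likely doublets was 3.50 ± 4.17 points at the 5% threshold. Without thinning, 97.6%, 98.2%, 90.6% and 90.8% of cells held Nr4a1, Ace, Spn and Cx3cr1. Among the genes followed, signs turned for some that had not been called: Spn at -0.078 with doublets kept, -0.000449 and -0.0116 at the 5% and 25% thresholds, -0.0106 with Scrublet, -0.00775 with DESeq2, -0.0243 without the filter and -0.00846 without Hpgd in the list, and H2-Ab1 at 0.057 with doublets kept. With equal numbers of cells Mt1 was at 0.11, S100a9 at 0.048 and Il1r2 at 0.68, Il1r2 was at 0.34 with Scrublet and 0.29 with both rules, and Cebpd was at 0.073 with doublets kept. Without female hyperoxia Mt1 was at 0.053 and S100a9 at 0.27, and without female room air Cebpd was at 0.073 and S100a9 at 0.18. S100a9 was called lower without male room air, at -0.50. With each library left out, log2 fold changes ranged from -0.05 to 0.00193 for Itgal, -0.19 to 0.017 for Gngt2, -0.07 to 0.00223 for Pou2f2, -0.55 to 0.32 for H2-Ab1 (0.25 without female hyperoxia), -0.17 to 0.042 for Plin2, -0.18 to 0.020 for Ace and -0.027 to 0.025 for Spn (-0.0245 without male room air). The labels give no replicate numbers to pair pools by, and the sex term of the fit sets each hyperoxia pool against the room air pool of its sex.

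With 1 residual degree of freedom, and 559 to 958 cells per library, the counts of calls are not firm, and they did not follow depth: equal numbers of cells, fewer in 3 of 4 libraries, gave 419.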

Other observations

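Of the 77 genes called lower, 53 are not on the interferon list, and several of them are known to be raised by interferons. Those named here were chosen after their values were seen, and each passed in most of the 17 alternatives. Ifi211, of the same DNA-sensor family as Ifi213, was at 43.2 and 65.3 CPM in female and male room air and 24.8 and 25.4 CPM in female and male hyperoxia (log2 fold change -1.08, SE 0.14, called in 15). Phf11b was at 57.1 and 87.7 CPM in room air and 36.6 and 38.4 CPM in hyperoxia (-0.92, SE 0.13, called in 15). The abundant antiviral genes changed less: Samhd1, which depletes nucleotides, went from 1064 and 1244 CPM to 876 and 791 CPM (-0.48, SE 0.09, called in 12), and Ifitm3, which blocks viral entry, from 2682 and 3245 CPM to 2268 and 2302 CPM (-0.38, SE 0.07, called in 12).

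Among the rises, also chosen after their values were seen, Setbp1, a chromatin-associated protein, was at 218 and 209 CPM in room air and 363 and 314 CPM in hyperoxia (0.65, SE 0.07, adjusted p = 0.00356, called in 16 of the alternatives). Galnt7, an enzyme that starts or extends O-linked sugars, went from 53.4 and 56.6 CPM to 92.6 and 81.1 CPM (0.65, SE 0.10, called in 15). Slc15a2, a peptide transporter, went from 5.43 and 3.40 CPM to 18.6 and 18.3 CPM (2.05, SE 0.21, called in 16), and it has 8.94 times the CPM in another lineage. The part of leftover doublet RNA in its rise was not tested. In the other lineage with the highest level, Setbp1 and Galnt7 had 0.728 and 0.533 times the CPM they had in the class.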
